A study of Mus musculus with 6 samples.

Results

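The Ccr2 macrophages of the mouse heart described here are C1q-expressing cells that also held transcripts of Ccr2, the receptor for the chemokine Ccl2. They were 3096 of the 32761 cells kept after filtering (9.45%), and of 10833 C1q macrophages (28.58%). Members were chosen by measured counts of unique molecular identifiers (UMIs, each marking a captured transcript). A cell needed at least 200 genes, at most 10% mitochondrial UMIs, at least 10 UMIs of C1qa, C1qb and C1qc together and at least 1 Ccr2 UMI. It also needed fewer than 3 UMIs of the resident macrophage genes Lyve1, Folr2 and Timd4, fewer than 4 of the interferon-induced genes Ifit2, Ifit3 and Rsad2, and fewer than 2 of the division genes Mki67, Top2a and Birc5. The B cell genes Cd79a and Cd79b had to stay under 2 UMIs, and the T cell genes Cd3e, Cd3d and Cd3g at 0. Levels of these 18 genes are therefore descriptions, and none was tested.

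CD45+ cells, the marker of leukocytes, had been isolated from hearts of C57Bl6J mice 28 days after treatment and profiled with droplet libraries of messenger RNA 3' ends. There were 3 groups of 2 libraries: mice labelled STING KO that received 12 Gy to the heart in 1 fraction from a small-animal microirradiator, wild-type (WT) mice that received the same dose, and sham-treated wild-type mice. STING, encoded by Tmem173, is the adaptor that links sensing of cytosolic DNA to type I interferon. The title of the knockout libraries adds only the word Tmem, the allele is not described, and sham hearts of that genotype were not analysed here, so an effect of genotype by itself and one that needs irradiation cannot be told apart. The labels give neither age, sex, number of animals nor batch. Xist, transcribed in female cells, was at 542.5 and 620.5 CPM in irradiated knockout, 275.5 and 382.4 CPM in irradiated wild-type and 238.4 and 326 CPM in sham members, and the Y-linked gene Ddx3y at 35.1 and 29.9, 39.7 and 46.2, and 50.6 and 60.1 CPM. Both were thus found in every library, Xist was highest in the knockout libraries, and the part of sex in the results was not tested. Whether 2 libraries of the same group stem from different mice is not stated, so every p-value reflects the spread between libraries, and that spread may be technical.

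Adult heart macrophages are a mixture. Resident macrophages marked by Lyve1, Folr2 and Timd4 renew locally, while Ccr2 macrophages are replaced from blood monocytes, which leave the bone marrow and enter tissue through Ccr2. In mouse models of heart injury, Ccr2 macrophages are known for chemokine production, inflammatory signalling and recruitment of further leukocytes, and they display antigen on MHC class II molecules. Descent from monocytes itself was not measured here.

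The libraries held 45904 barcodes, 4556 to 9319 each (the labels speak of 4500 to 9300 cells), with 31650962 to 59675213 UMIs. Among Ccr2 macrophages the median depth per cell was 8584 and 8005 UMIs for irradiated knockout, 6937.5 and 6045 for irradiated wild type and 6045 and 5823.5 for sham. Their summed UMIs were 7025539 and 6928212, 4040953 and 4551496, and 1500623 and 1466337 in the same order of groups, so the sham values rest on the fewest reads. Pairs of libraries shared 6 to 38 barcodes, and at most 1 among Ccr2 macrophages. The 2 libraries of a group differed by more than sampling noise, with chi-square values per degree of freedom of 3.935, 4.229 and 2.509. Transcripts of other cells stood apart in single libraries: summed neutrophil markers came to 2077 and 1620 CPM in knockout, 461 and 784 CPM in irradiated wild-type and 665 and 4750 CPM in sham members, and erythroid markers to 6.35 and 5.41, 5.78 and 390, and 888 and 35.4 CPM. CPM (counts per 1000000 UMIs) are UMIs summed over the members of a library and divided by its TMM-scaled total, and for other cell classes by the plain total.

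The label was checked against marker genes. Transcripts of Adgre1, which encodes the macrophage surface protein F4/80, stood at 405 and 390 CPM in irradiated knockout, 446 and 394 CPM in irradiated wild-type and 416 and 406 CPM in sham Ccr2 macrophages. That lay between the 581 to 650 CPM of resident macrophages without a Ccr2 UMI (3853 cells) and the 94.7 to 162 CPM of Ly6c2 monocytes (815 cells with fewer than 10 C1q UMIs). Csf1r, the receptor for the macrophage growth factor, ranged over 623 to 822 CPM, and Fcgr1, a macrophage Fc receptor, over 126 to 233 CPM. All 3 genes were thus present in every library.

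Monocyte genes differed in level. Ly6c2, a surface antigen of inflammatory monocytes, was at 20.7 and 40.2 CPM in irradiated knockout, 39.7 and 25.9 CPM in irradiated wild-type and 36.7 and 45.3 CPM in sham Ccr2 macrophages, against 1023 to 1382 CPM in Ly6c2 monocytes, which were themselves gated on that gene. Plac8, another gene of young monocytes, stood at 78.1 to 191 CPM in Ccr2 macrophages and 2639 to 3228 CPM in monocytes. S100a4, a calcium-binding protein of recently arrived myeloid cells, was intermediate, with 712 to 1010 CPM in Ccr2 macrophages, 1952 to 2476 CPM in monocytes and 378 to 586 CPM in resident macrophages. H2-Ab1, an MHC class II chain, was at 7668 to 10420 CPM in Ccr2 macrophages and 2095 to 3754 CPM in resident macrophages. The 14 dendritic cell markers summed to 137 to 219 CPM in Ccr2 macrophages and 77.6 to 123 CPM in resident macrophages. Ly6c2 and Plac8 were thus far below monocytes, but other genes of the monocyte list were not low: Lyz2, a lysozyme gene shared by monocytes and macrophages, was at 10470 to 15330 CPM. The list as a whole summed to 16200 to 21260 CPM in Ccr2 macrophages and 21780 to 25390 CPM in resident macrophages.

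Ccr2 macrophages took a larger share in irradiated hearts of either genotype than in sham wild-type hearts. They made up 37.88% and 40.63% of C1q macrophages in irradiated knockout, 43.95% and 36.52% in irradiated wild type and 11.73% and 9.658% in sham. Both irradiated groups lay above both sham libraries, and the 2 irradiated groups overlapped. The means were 39.26% ± 1.945, 40.23% ± 5.254 and 10.69% ± 1.465 (SD, n = 2 each). Irradiated wild type exceeded sham by 29.54 percentage points, a ratio of 3.76 (two-sided exact permutation test, p = 0.333, the smallest that 2 against 2 libraries allow). The knockout mean differed from irradiated wild type by -0.98 points (exact permutation p = 1) and from sham by 28.56 points (exact permutation p = 0.333).

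Depth and free RNA bear on that share, since more UMIs make a Ccr2 UMI more likely. With every cell thinned to 3000 UMIs the shares were 39.02% and 41.93% in irradiated knockout, 42.2% and 37.3% in irradiated wild type and 10.78% and 9.131% in sham, after 8749 shallower cells had been left out. At least 1 Ccr2 UMI was found in 57.75% and 59.68% of irradiated knockout, 55.45% and 49.02% of irradiated wild-type and 14.49% and 12.05% of sham C1q macrophages. For background, B cells of the same libraries had a Ccr2 UMI in 12.26% and 12.44%, 9.906% and 15.04%, and 9.751% and 7.759% of cells, at median depths of 2623 to 5352 UMIs. Endothelial cells had one in at most 4.17% of cells, and in at most 1.33% in the sham libraries, at median depths of 4829.5 to 7963.5 UMIs. The sham share therefore stood close to that of B cells, which were shallower, and well above that of endothelial cells. The part of free RNA in the sham share was not tested. A change in the number of Ccr2 macrophages and a change of Ccr2 in macrophages cannot be told apart by this rule.

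The other C1q macrophages make up the rest of the whole, so their joint share had to fall as that of Ccr2 macrophages rose. Resident macrophages without a Ccr2 UMI took 27.79% ± 2.68 in irradiated knockout, 26.4% ± 5.049 in irradiated wild type and 48.83% ± 4.738 in sham. Cells with no Ccr2 UMI and fewer than 3 resident UMIs took 13.5% ± 1.308, 21.37% ± 0.495 and 37.9% ± 3.012, without overlap of the irradiated groups. Cells with Ccr2 and at least 3 resident UMIs, which the rule leaves out, took 19.46% ± 0.5798, 12% ± 0.7071 and 2.571% ± 0.2553 (SD, n = 2 each), and their 2 irradiated groups did not overlap (exact permutation p = 0.333). Depth bears on these last 2 classes, since both turn on the count of Ccr2 and resident UMIs. Median depth of C1q macrophages was 8780 and 8257 UMIs in irradiated knockout, 6876 and 5936 in irradiated wild type and 4966.5 and 5413 in sham. The part of depth in these shares was not tested. All C1q macrophages together made up 31.44%, 31.14% and 37.66% of kept cells, and Ccr2 macrophages 12.34% ± 0.2616, 12.61% ± 2.899 and 4.063% ± 1.062.

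**Figure D1:**
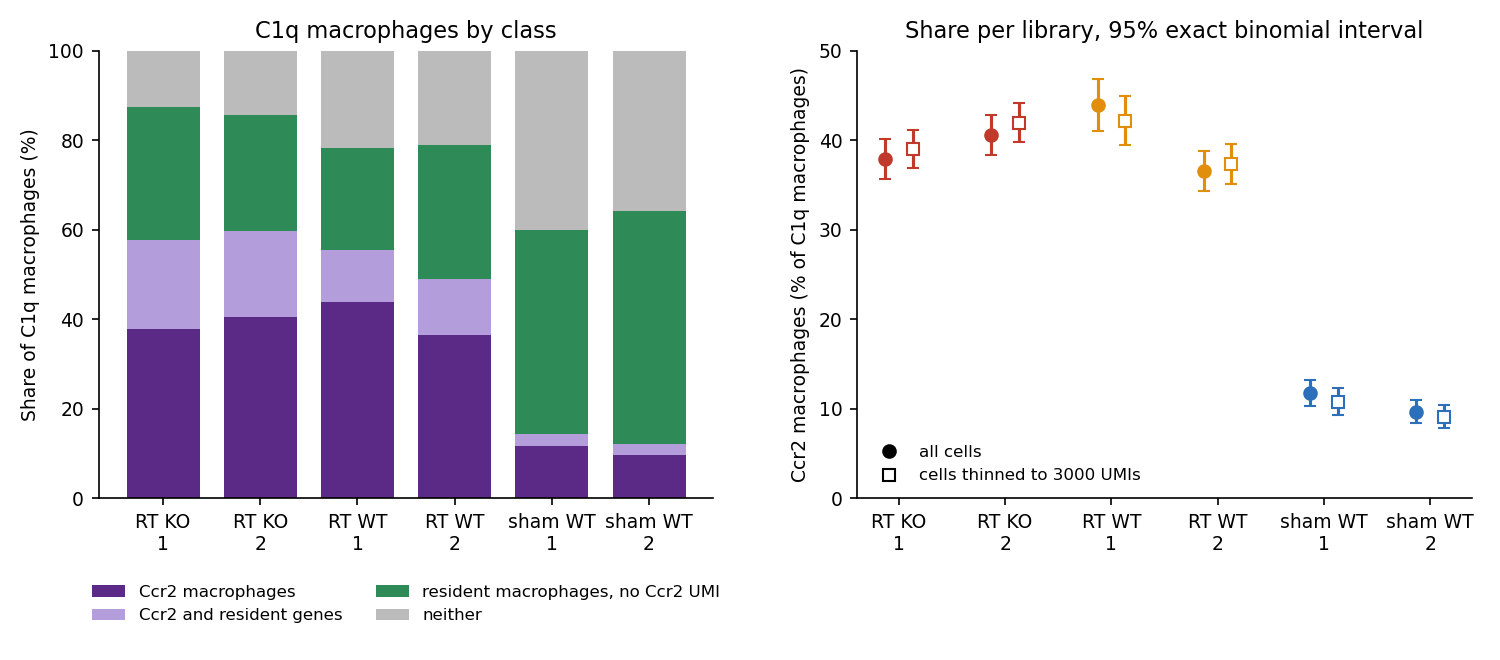
Left, the C1q macrophages of each library split by Ccr2 and resident genes, as percent. Right, the percent that were Ccr2 macrophages in all cells (circles) and in cells thinned to 3000 UMIs (squares), with 95% exact binomial intervals that cover counting error only. The 4 irradiated libraries lay between 36.52% and 43.95%, and the sham libraries at 11.73% and 9.658%.

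Members differed among themselves along the number of Ccr2 UMIs. Of the 3096 cells, 447 had exactly 1 Ccr2 UMI, 911 had 2 to 4 and 1738 had 5 or more, and a further 2682 C1q macrophages with few resident UMIs had none and were not members. Apoe, which carries lipid out of macrophages, had medians over the 6 libraries of 16420 CPM in cells with no Ccr2 UMI, 10440 CPM with 1, 8537 CPM with 2 to 4 and 5896 CPM with 5 or more. Cd163, the haemoglobin scavenger receptor of resident macrophages, stood at 83.8, 32.1, 17.5 and 18.9 CPM along the same steps, and Adgre1 at 617, 454, 470 and 381 CPM. S100a4 and Ly6c2 ran the other way, with S100a4 at 200, 469, 609 and 1078 CPM and Ly6c2 at 7.13, 11.2, 38.4 and 42.1 CPM. Lyz2, also of the monocyte list, did not, and was highest without Ccr2, at 15630, 11360, 11420 and 12500 CPM. H2-Ab1 was at 6946 CPM without Ccr2 and 9106, 9532 and 9678 CPM in members. For Apoe, Cd163, S100a4, Ly6c2 and H2-Ab1, though not for Adgre1, cells with 1 Ccr2 UMI had the medians nearest to those without Ccr2. They were 10.8% and 10.6% of irradiated knockout, 13.5% and 18.7% of irradiated wild-type and 17.7% and 26.2% of sham members.

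**Figure D2:**
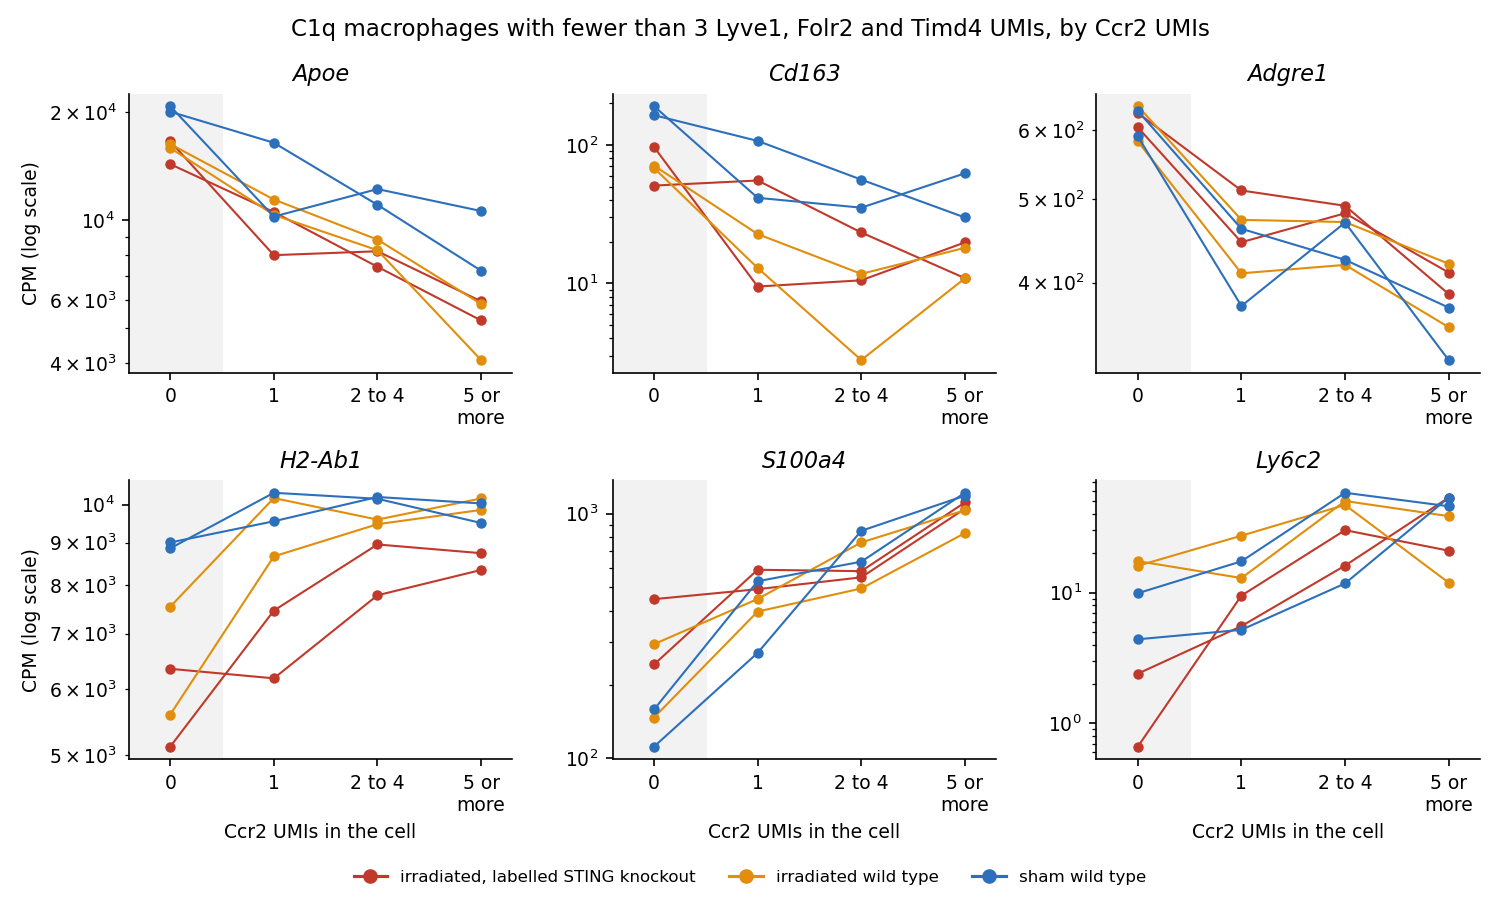
Levels of 6 genes (CPM, log scale) in C1q macrophages with fewer than 3 resident UMIs, by the number of Ccr2 UMIs in the cell, with a line per library. The shaded step holds the 2682 cells without Ccr2, which are not members. In every library Apoe and Adgre1 were highest there and S100a4 lowest, while Cd163 and Ly6c2 varied between libraries.

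The limit on resident genes left out cells in every library: 373 and 362 C1q macrophages with Ccr2 in irradiated knockout, 134 and 229 in irradiated wild type and 53 and 51 in sham had at least 3 resident UMIs. Near the limit on C1q, cells with 10 to 14 C1q UMIs numbered 81, and 107 more with 5 to 9 fell just outside. Median Plac8 was 842 CPM just inside that limit and 802 CPM just outside, and Adgre1 was 130 and 120 CPM. In these 2 genes cells on both sides of the limit were thus nearer to monocytes than other members were. Median Ly6c2 was 157 and 115 CPM, still far below monocytes. The dendritic cell marker Cd209a had medians of 106.5 and 254.6 CPM, against 3.6 to 24.2 CPM in members grouped by Ccr2 UMIs. Flt3, another such marker, had medians of 0 CPM on both sides. There were 217 members with 2 resident UMIs and 126 otherwise fitting cells with 3, with median Cd163 of 44.5 and 60.7 CPM. The interferon limit also removed cells unevenly: 3.53% and 6.20% of otherwise fitting cells in irradiated knockout, 12.0% and 8.10% in irradiated wild type and 2.17% and 3.74% in sham. Median Irf7 was 116 CPM in the 56 members with 3 UMIs of the 3 interferon genes and 175 CPM in the 83 cells with 4 to 6 that were left out. Interferon values below therefore describe the cells with the lower response.

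Irradiated wild-type and sham Ccr2 macrophages were compared gene by gene to ask which transcripts differed 28 days after the dose. Of 10927 genes tested with edgeR's quasi-likelihood test (Benjamini-Hochberg adjusted p under 0.05), 8 rose (0.0732%) and 9 fell (0.0824%). Those that rose were interferon-induced genes, monocyte-attracting chemokines, a p53 target and a cyclin. Those that fell included scavenger and lipid genes. For each of the 17, the 2 irradiated wild-type libraries lay on 1 side of both sham libraries.

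Irf7, the transcription factor that amplifies type I interferon, was at 192 and 132 CPM in irradiated wild-type and 33.3 and 43.1 CPM in sham Ccr2 macrophages (log2 fold change 2.08 ± 0.29 SE, adjusted p = 0.0340). It lies on chromosome 7 of GRCm38, 141262706 to 141266481, minus strand. Its UMIs were spread over 49.2% and 35.9% of irradiated wild-type members and 12.0% and 20.4% of sham members. The antiviral membrane protein gene Bst2 stood at 448.5 and 328 CPM against 184 and 196 CPM (1.03 ± 0.15, adjusted p = 0.0429). Ly6a, an interferon-induced surface antigen, stood at 161 and 103 CPM against 36.0 and 21.2 CPM (2.20 ± 0.29, adjusted p = 0.0242), from 120 and 72 irradiated wild-type and 8 and 12 sham cells. Members that also held lymphoid transcripts gave 71 of its 642 and 35 of its 458 UMIs in irradiated wild type and 40 of its 52 and 12 of its 30 UMIs in sham, and without such members its log2 fold change was 3.43 (adjusted p = 0.00203). Cxcl10, a chemokine that attracts activated T cells, was at 306 and 269 CPM in irradiated wild-type and 97.0 and 126 CPM in sham members (1.37 ± 0.14, adjusted p = 0.00893). It was found in 25.2% and 21.4% of irradiated wild-type and 13.7% and 14.6% of sham members.

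Ccl7 and Ccl12 are ligands of Ccr2 itself. Ccl7 was at 430 and 488 CPM in irradiated wild-type and 146 and 193 CPM in sham Ccr2 macrophages (1.44 ± 0.18, adjusted p = 0.0236). Ccl12 was at 362 and 248 CPM in irradiated wild-type and 63.8 and 104 CPM in sham members (1.86 ± 0.26, adjusted p = 0.0353). Ccl2, the ligand with the strongest known role in monocyte recruitment, had 1046 and 1339 CPM against 725 and 851 CPM and did not pass the test (0.60 ± 0.13, adjusted p = 0.155). Phlda3, a p53 target that restrains Akt, stood at 30.2 and 33.6 CPM in irradiated wild-type and 6.24 and 8.49 CPM in sham members (2.11 ± 0.24, adjusted p = 0.0131). Ccnd1, a cyclin of the G1 phase, stood at 207 and 213 CPM against 119 and 97.6 CPM (0.95 ± 0.12, adjusted p = 0.0187).

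Gpnmb, a glycoprotein of lipid-laden macrophages, showed the largest fall. It was at 3.27 and 1.58 CPM in irradiated wild-type and 58.9 and 82.7 CPM in sham members (-4.88 ± 0.30, adjusted p = 0.000337). Its UMIs came from few cells, 3 and 4 irradiated wild-type and 10 and 11 sham members. In sham these were 4.42% and 5.34% of members, so the level was that of a small subset, and 46 of its 85 and 57 of its 117 sham UMIs lay in members with lymphoid transcripts. Cd163 was at 9.05 and 17.1 CPM against 54.1 and 60.1 CPM (-2.11 ± 0.25, adjusted p = 0.0147), in 5.27% and 8.37% of irradiated wild-type and 15.04% and 20.87% of sham members. Apoe was at 7287 and 6482 CPM against 9870 and 11520 CPM (-0.64 ± 0.09, adjusted p = 0.0332), and Selenop, a selenium carrier of resident macrophages, at 1065 and 1066 CPM against 1492 and 1549 CPM (-0.51 ± 0.07, adjusted p = 0.0332). Both Cd163 and Apoe were also lower in cells with more Ccr2 UMIs. With at least 2 Ccr2 UMIs required, Cd163 had a log2 fold change of -2.02 (adjusted p = 0.0326) and Apoe of -0.72 (adjusted p = 0.0676).

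Chil3, a chitinase-like protein of monocytes and alternatively activated macrophages, was at 14.83 and 22.99 CPM in irradiated wild-type and 88.0 and 68.6 CPM in sham members (-2.04 ± 0.21, adjusted p = 0.00893), carried by 11 and 23 irradiated wild-type and 18 and 11 sham cells. Neutrophil markers summed to 461 and 784 CPM in irradiated wild-type and 665 and 4750 CPM in sham members, and were highest in sham replicate 2. The part of neutrophil RNA in the Chil3 values was not tested. The interleukin-33 receptor gene Il1rl1 fell by 1.03 (SE 0.15, adjusted p = 0.0415) and the sphingomyelinase-like gene Smpdl3a fell by 0.73 (SE 0.10, adjusted p = 0.0370), both on the log2 scale, but neither was called in any fit that left out a library, nor without members holding lymphoid transcripts (adjusted p = 0.101 and 0.0741). Rora, a nuclear receptor of innate lymphoid cells, also fell by 2.21 (0.22, adjusted p = 0.00893), but 29 of its 48 and 39 of its 45 sham UMIs came from members with lymphoid transcripts. Without such members, a choice made after the values were seen, its log2 fold change was -0.71 (adjusted p = 0.552). T and NK cell markers summed to 41.0 and 54.5 CPM in irradiated wild-type and 150 and 113 CPM in sham members.

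**Figure D3:**
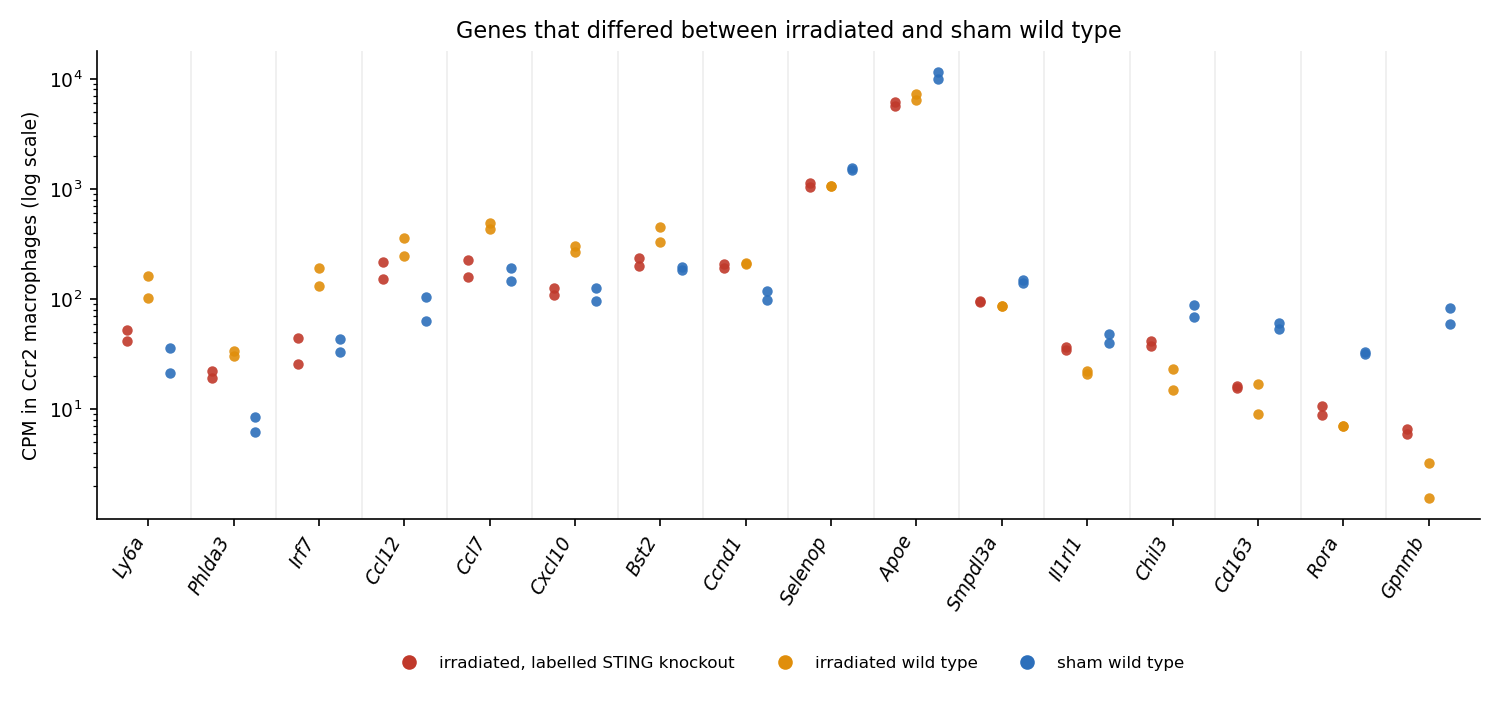
CPM on a log scale of 16 genes that passed the test between irradiated and sham wild-type Ccr2 macrophages, with a point per library and the knockout libraries beside them. For each gene the irradiated and the sham wild-type points do not overlap.

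These calls rest on few libraries. With a library left out in turn, 20 genes were called without knockout replicate 1 and 19 without knockout replicate 2. Only 1 was called when irradiated wild-type replicate 1 was left out, against 18 when its replicate 2 was. Leaving out sham replicate 1 gave 10 and leaving out sham replicate 2 gave 1. Gpnmb was called in all 6 of these fits, at log2 fold changes of -5.47 to -4.42, and it was the only one of the 17 still called without irradiated wild-type replicate 1, sham replicate 1 or sham replicate 2. Each of the 17 kept its direction in all 6.

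Knockout and wild-type irradiated Ccr2 macrophages were compared to ask which of these transcripts differed with the STING label. Tmem173 checks that label first. It was at 46.5 and 48.0 CPM in irradiated knockout, 57.3 and 53.6 CPM in irradiated wild-type and 36.0 and 51.6 CPM in sham members (knockout against irradiated wild type -0.23 ± 0.13, adjusted p = 0.486). Levels were thus similar in both genotypes. Reads from the 3' end test the label only if the undescribed allele changes that end of the transcript. Every direction below rests on the label.

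Of the 10927 genes, 17 rose (0.156%) and 48 fell (0.439%) in the libraries labelled knockout. Interferon-induced genes, chemokines, Tnf and MHC genes were among those that fell. Irf7 was at 25.8 and 44.0 CPM in irradiated knockout against 192 and 132 CPM in irradiated wild-type members (-2.21 ± 0.25, adjusted p = 0.00919), and the sham libraries had 33.3 and 43.1 CPM. It was detected in 16.9% and 25.8% of irradiated knockout and 49.2% and 35.9% of irradiated wild-type members. Cxcl10 was at 110 and 127 CPM against 306 and 269 CPM (-1.28 ± 0.13, adjusted p = 0.00449), and Ly6a at 41.6 and 52.4 CPM against 161 and 103 CPM (-1.49 ± 0.22, adjusted p = 0.0253). Oas1a, whose product makes the second messenger that activates RNase L, was at 21.4 and 27.9 CPM against 65.9 and 45.3 CPM (-1.17 ± 0.19, adjusted p = 0.0321). Xaf1, Rtp4 and Ifi27l2a, which are interferon-induced too, changed by -0.77, -0.90 and -0.78 (adjusted p = 0.0358, 0.0466 and 0.0340). Among the genes named in this paragraph, only Irf7 was called in every fit that left out a library, though all kept their direction.

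Promoters of 3 of these genes are shown because they rose or fell together and hold a sequence pattern of interferon response elements, GAAA, then any 2 bases, then GAAA. They are RefSeq sequences on GRCm38.p6, 5' to 3' on the gene's strand, from 250 bases before to 50 bases after the start, with the pattern in capitals. Cxcl10 (chr5:92348840-92349139, minus strand) had 1 match, which began 213 bases before the start, Oas1a (chr5:120907476-120907775, minus strand) had 2 overlapping matches from 20 bases before it, and Bst2 (chr8:71537423-71537722, minus strand) had 2 overlapping matches from 130 bases before it.
Cxcl10: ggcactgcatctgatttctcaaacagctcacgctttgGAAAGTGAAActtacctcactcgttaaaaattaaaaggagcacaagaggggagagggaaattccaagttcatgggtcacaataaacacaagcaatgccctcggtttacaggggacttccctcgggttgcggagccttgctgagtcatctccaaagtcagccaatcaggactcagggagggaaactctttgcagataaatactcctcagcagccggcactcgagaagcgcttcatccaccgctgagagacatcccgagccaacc
Oas1a: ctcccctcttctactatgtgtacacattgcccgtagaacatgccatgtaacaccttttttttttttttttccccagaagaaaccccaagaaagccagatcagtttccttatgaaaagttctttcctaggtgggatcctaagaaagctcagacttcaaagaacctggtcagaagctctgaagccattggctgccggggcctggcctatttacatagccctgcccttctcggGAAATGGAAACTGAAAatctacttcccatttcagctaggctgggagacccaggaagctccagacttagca
Bst2: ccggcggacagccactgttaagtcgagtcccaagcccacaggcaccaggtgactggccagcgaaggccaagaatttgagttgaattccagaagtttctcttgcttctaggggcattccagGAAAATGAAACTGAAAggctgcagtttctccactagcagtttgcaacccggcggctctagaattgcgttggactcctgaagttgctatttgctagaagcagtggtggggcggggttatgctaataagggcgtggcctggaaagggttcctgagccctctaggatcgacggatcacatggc

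The pattern was searched on both strands. It was found for 3.99% of all genes with an entry and 4.15% of the genes tested, and for 23 of 40 interferon-stimulated genes with an entry (57.5%). Among MHC class I genes 5 of 17 held it and among MHC class II genes 0 of 8. Of 30 genes with an entry that fell in the libraries labelled knockout, 6 held it (20%). The windows of Irf7, Xaf1, Ccl12, H2-K1, H2-D1 and H2-Q4 held no match.

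Of 24 chemokine genes tested, 5 fell in the libraries labelled knockout, against 0.439% of all genes, and 19 did not pass. Ccl7 was at 158 and 227 CPM in irradiated knockout against 430 and 488 CPM in irradiated wild-type members (-1.25 ± 0.17, adjusted p = 0.0215), and Ccl2 at 566 and 676 CPM against 1046 and 1339 CPM (-0.94 ± 0.13, adjusted p = 0.0228). The reads of Ccl4 and Ccl3, which also attract leukocytes, came to 844 and 1022, and 446 and 496 CPM in irradiated knockout, against 1694 and 1540, and 786 and 710 CPM in irradiated wild type, and the genes changed by -0.79 and -0.67 (adjusted p = 0.0146 and 0.0244). Ccl12 had 151 and 216 CPM against 362 and 248 CPM and did not pass the test (-0.73 ± 0.23, adjusted p = 0.205). The inflammatory cytokine gene Tnf was at 163 and 153 CPM in irradiated knockout and 260 and 319 CPM in irradiated wild-type members (-0.87 ± 0.11, adjusted p = 0.0146). Cd69, an early activation antigen, was at 14.2 and 17.1 CPM against 42.7 and 35.1 CPM (-1.31 ± 0.15, adjusted p = 0.00919).

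Of the antigen presentation genes, 3 of 21 in class I and 3 of 11 in class II fell in the libraries labelled knockout, against 0.439% of all genes. Of the 6 fits that left out a library, 1 called H2-K1, H2-D1, H2-Q4 and H2-Aa each, 4 called Cd74 and none called H2-Ab1. The class I heavy chain genes H2-K1 and H2-D1 were at 1134 and 1406, and 2012 and 2170 CPM in irradiated knockout, against 2352 and 1851, and 3416 and 2886 CPM in irradiated wild-type members (-0.73 ± 0.13 and -0.59 ± 0.09, adjusted p = 0.0467 and 0.0245). Cd74, the invariant chain that escorts MHC class II, was at 26450 and 27090 CPM against 34570 and 34120 CPM (-0.36 ± 0.04, adjusted p = 0.0102), and sham members had 34490 and 34660 CPM. Cell by cell, after thinning, the median number of class II UMIs was 183 and 184 in irradiated knockout, 216.5 and 208 in irradiated wild-type and 219 and 223.5 in sham members. Cdkn1a, the p53 target that halts the cell cycle, was at 394 and 383 CPM against 611 and 617 CPM (-0.66 ± 0.08, adjusted p = 0.00979).

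Aldh1a3, an enzyme that makes retinoic acid, showed the largest rise. It had 187 and 171 UMIs in irradiated knockout, 1 and 2 in irradiated wild-type and 2 and 0 in sham members. These came from 153 and 144 knockout cells (21.5% and 18.7%). With cells thinned to 1000 UMIs, Aldh1a3 was found in 3.66% and 2.08% of knockout members and in 1.48% and 1.28% of B cells of the same libraries, so the gene was also found in cells that give the background. Per total UMIs the knockout level was 73.5 times that of irradiated wild type (95% exact interval 24.9 to 358, counting error only), and edgeR's quasi-likelihood test gave an adjusted p of 0.000464. Resident macrophages showed it as well, at 26.5 and 26.3 CPM in irradiated knockout, 0.908 and 0 CPM in irradiated wild-type and 0.353 and 0.131 CPM in sham libraries. The gene lies on chromosome 7 of GRCm38, 66390890 to 66427517, minus strand.

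Slc40a1, the iron exporter ferroportin, was at 22.6 and 21.9 CPM in irradiated knockout and 9.55 and 8.79 CPM in irradiated wild-type members (1.28 ± 0.18, adjusted p = 0.0228). Notch2, a receptor of cell fate signalling, changed by 0.81, the zinc transporter gene Slc39a1 by 0.83 and the sorting receptor gene Sorl1 by 0.72 (adjusted p = 0.0466, 0.0228 and 0.0466). Il1rl1, which was lower in irradiated than in sham wild type, was higher in irradiated knockout than in irradiated wild type by 0.71 (adjusted p = 0.0466). None of these last 4 genes was called in any of the 6 fits that left out a library. Lrg1 and Ifitm1 rose by 2.67 and 2.22 (adjusted p = 0.0228 and 0.0245). Sham replicate 2, the library with most neutrophil transcripts, had 17.7 CPM of Lrg1 and 62.2 CPM of Ifitm1 against 4.85 and 23.6 CPM in sham replicate 1, and the part of neutrophil RNA in these calls was not tested.

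**Figure D4:**
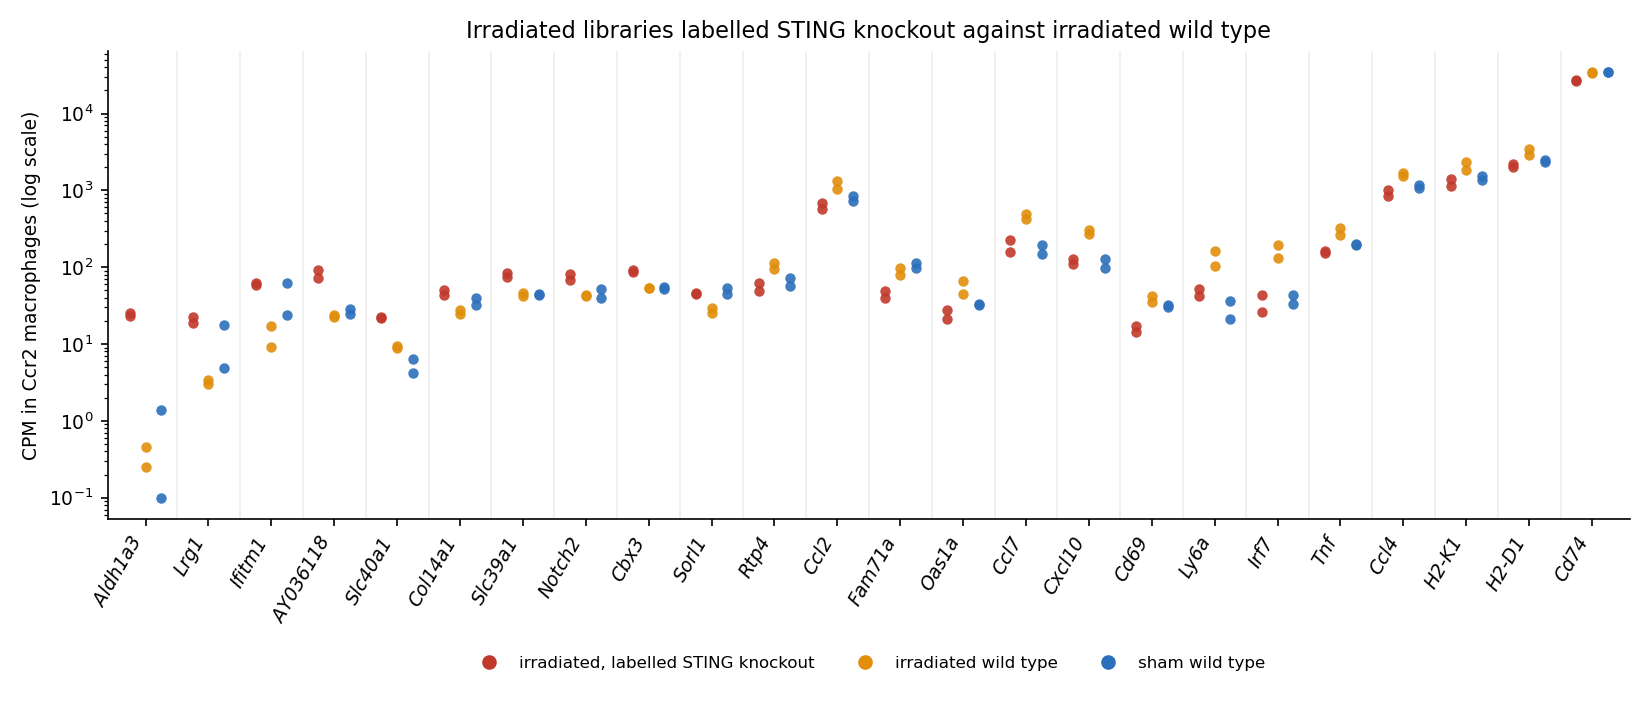
CPM on a log scale of genes that passed the test between irradiated knockout and irradiated wild-type Ccr2 macrophages, with a point per library and sham beside them. A level of 0 (Aldh1a3 in sham replicate 2) is drawn at 0.1. The knockout and irradiated wild-type points do not overlap for any gene.

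With a library left out in turn, the genotype calls numbered 7 (knockout replicate 1) and 18 (knockout replicate 2), 19 and 32 for the irradiated wild-type pair, and 31 and 32 for the sham pair. Called in all 6 fits were Irf7 (-2.65 to -1.88), Aldh1a3 (5.66 to 6.43) and 4 noncoding or predicted genes, Gm10076, Gm42418, AY036118 and G530011O06Rik, named here after their values were seen. Gm42418 and AY036118 overlap on opposite strands of chromosome 17, and their values are uncertain because no label states whether the counting used strand. All 65 kept their direction.

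Irradiated knockout Ccr2 macrophages were also set against sham wild type, which shares its libraries with both comparisons above. Of 10927 genes, 16 rose (0.146%) and 78 fell (0.714%). Gpnmb fell by 3.49 (adjusted p = 0.000447), Cd163 by 1.84 (adjusted p = 0.00762) and Apoe by 0.85 (adjusted p = 0.00539), the genes that were also lower in irradiated wild type. Phlda3 was at 22.2 and 19.2 CPM in irradiated knockout and 6.24 and 8.49 CPM in sham members (1.49 ± 0.24, adjusted p = 0.0274), and Ccnd1 at 192 and 210 CPM against 119 and 97.6 CPM (0.89 ± 0.12, adjusted p = 0.00983). The replication licensing genes Mcm3 and Mcm6 rose by 1.18 and 1.03 (adjusted p = 0.0295 and 0.0229), and Cx3cr1, a chemokine receptor gained as monocytes mature, rose by 0.71 (adjusted p = 0.0323), all 3 named after their values were seen. Klf2 and Klf4, transcription factors that quiet myeloid cells, fell by 1.12 and 0.76 (adjusted p = 0.00762 and 0.00648), and were chosen in the same way. Both stand in the list of immediate early and dissociation genes, of which 1 of 25 lay above 0 (51.2% of all genes), with a median of -0.47, and the part of cell dissociation in these values was not tested. The interferon genes gave other values: Irf7 had a log2 fold change of -0.13 ± 0.31 and Cxcl10 of 0.09 ± 0.14 (adjusted p = 0.902 and 0.846).

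The fit without sham replicate 2 called 2 genes in this comparison, and the fit without sham replicate 1 called 10, against 94 with all libraries. Leaving out knockout replicate 1 gave 41 calls and knockout replicate 2 gave 23, whereas the irradiated wild-type libraries, left out in turn, gave 110 and 127.

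Gene lists describe the same shifts by function. Of 49 interferon-stimulated genes tested, 2 rose with irradiation (Irf7 and Bst2), none fell and 47 did not pass. All 49 had a log2 fold change above 0, against 50.2% of all genes tested, with a median of 0.58. In 40 of them both irradiated wild-type libraries lay above both sham libraries, which held for 21.7% of all genes. In the libraries labelled knockout 6 of the 49 fell (Irf7, Oas1a, Bst2, Xaf1, Rtp4 and Ifi27l2a). All 49 lay below 0, against 49.5% of all genes, with a median of -0.50, and 39 did not overlap in that direction, against 24.2%. Both comparisons share the irradiated wild-type libraries, so the opposite signs are not independent. Between irradiated knockout and sham, 23 of the 49 lay above 0, against 51.2% of all genes, with a median of -0.02, and no member passed the test (1 higher at an unadjusted p under 0.05, against 5.69% of all genes).

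Interferon-stimulated transcripts were also counted per cell, where free RNA adds to the counts and the interferon limit of the rule left out the highest cells. After thinning, the median number of UMIs of 50 such genes per cell was 9 and 11 in irradiated knockout, 15 and 13 in irradiated wild-type and 9 and 11 in sham members. Cells with at least 20 such UMIs were 9.96% and 18.7%, 35% and 26.2%, and 8.87% and 18.7% of members. Without the interferon limit of the rule, which returns 219 cells, the list medians were 0.74 with irradiation and -0.61 with the knockout label.

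MHC class I genes (21 tested) had a median of 0.48 with irradiation, 20 of them above 0 and none past the test (13 higher at an unadjusted p under 0.05, against 6.48% of all genes). In the libraries labelled knockout 3 fell (H2-K1, H2-D1 and H2-Q4), with a median of -0.35. MHC class II genes (11 tested) had a median of -0.05 with irradiation, with none past the test (3 lower at an unadjusted p under 0.05, against 6.92%). Their median was -0.30 with the knockout label, where Cd74, H2-Aa and H2-Ab1 fell, and these 3 fell against sham too. Among 22 interferon-gamma GTPases and chemokines, Cxcl10 rose with irradiation (median 0.67), and Cxcl10 and Socs1 fell with the knockout label (median -0.33). Cxcl9 shows how 1 library can carry a value, at 3.65 and 131 CPM in irradiated knockout, 144 and 14.7 CPM in irradiated wild-type and 4.85 and 2.12 CPM in sham members, and it did not pass (adjusted p = 0.428 with irradiation).

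Over all genes tested, 0.0732% rose and 0.0824% fell with irradiation, and 0.156% rose and 0.439% fell with the knockout label; the counts that follow stand beside these shares. Of 24 chemokine genes 2 rose with irradiation (median 0.25) and 5 fell with the knockout label (median -0.34). Of 28 p53 targets Phlda3 rose with irradiation (median 0.29), and Cdkn1a and Plk2 fell with the knockout label (median -0.13). Bax, the p53 target that opens mitochondria in cell death, had 216 and 208 CPM in irradiated wild-type and 154 and 127 CPM in sham members without passing (0.60 ± 0.11, adjusted p = 0.0998). Of 30 interleukin-1, Tnf and NF-kB genes none passed with irradiation (median -0.05), and Tnf fell with the knockout label (median -0.31). With irradiation 6 were higher and 3 lower at an unadjusted p under 0.05, against 6.48% and 6.92% of all genes. The DNA sensing list (18 tested) holds Tmem173 itself and the type I interferon gene Ifnb1 beside other genes of the pathway. None of the 18 passed the test in either comparison. Ifnb1 had the lowest p of the list in both. The list's log2 fold changes ran from -0.24 to 3.82 with irradiation and from -4.16 to 1.11 with the knockout label. At an unadjusted p under 0.05, 3 were higher with irradiation (6.48% of all genes), and 2 were higher and 4 lower with the knockout label (6.65% and 7.48% of all genes).

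Of 27 resident macrophage genes Cd163 and Selenop fell with irradiation (median -0.24), and Slc40a1 rose with the knockout label (median 0.27). With that label 2 of the 27 lay below 0, against 49.5% of all genes. At an unadjusted p under 0.05, 12 were higher and 1 was lower, against 6.65% and 7.48% of all genes. Of 26 lipid-associated macrophage genes Gpnmb and Apoe fell with irradiation (median -0.15). Trem2, the lipid receptor of that state, was at 222 and 205 CPM in irradiated knockout, 210 and 192 CPM in irradiated wild-type and 243 and 236 CPM in sham members (-0.25 ± 0.09 with irradiation, adjusted p = 0.302). Of 26 monocyte genes 1 rose and 1 fell with irradiation (median -0.12). Of 25 immediate early genes, which also respond to dissociation of tissue, 0 passed with irradiation (median -0.21). At an unadjusted p under 0.05, 10 were lower with irradiation, against 6.92% of all genes. In irradiated knockout against sham 4 fell (median -0.47), against 0.714% of all genes. With the knockout label 0 of the 25 passed, but 23 lay below 0 (median -0.28), 15 were lower at an unadjusted p under 0.05, against 7.48% of all genes, and 18 were lower without overlap, against 24.2%. These values moved with the falls of Tnf, Ccl2, Ccl3, Ccl4 and Cd69 above, and their part in them was not tested. Oxidative phosphorylation genes (30 tested, median 0.09) included none past the test with irradiation (4 higher at an unadjusted p under 0.05, against 6.48% of all genes). The median over all genes tested was at most 0.01 in each of the 3 comparisons.

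**Figure D5:**
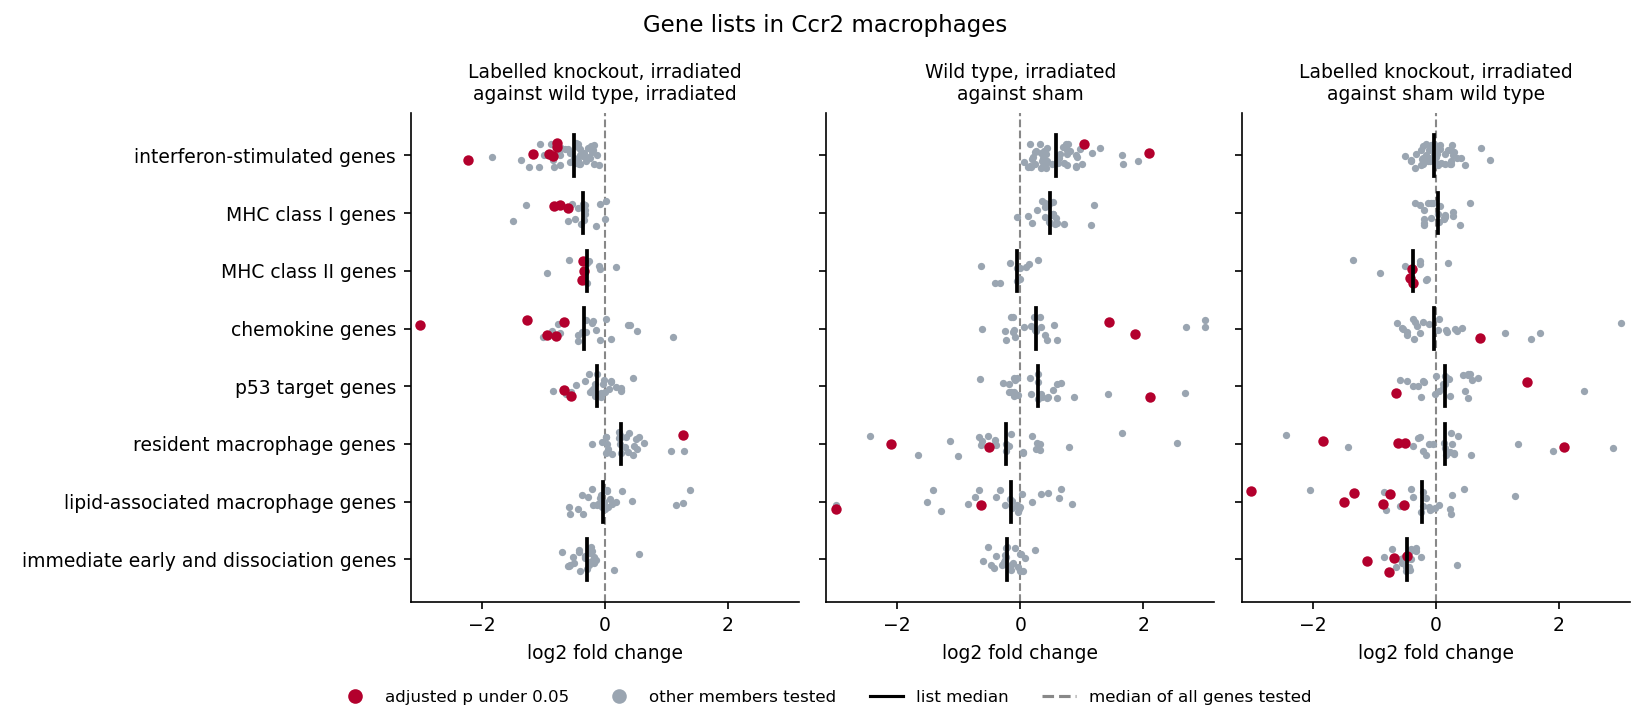
Log2 fold changes of members of 8 gene lists in Ccr2 macrophages in 3 comparisons, with called genes in red, list medians as bars and the median of all genes tested as a dashed line. Values beyond 3 in either direction are drawn at 3. Interferon-stimulated genes lie left of 0 for knockout against irradiated wild type, right of 0 for irradiated against sham wild type, and around 0 for irradiated knockout against sham.

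Resident macrophages of the same libraries, with at least 3 resident UMIs and no Ccr2 UMI, show which of these differences went beyond Ccr2 macrophages. In them 25 of 11254 genes rose (0.222%) and 11 fell (0.0977%) with irradiation. Irf7 changed by 1.75, Phlda3 by 2.22, Ccl12 by 1.30, Ccl7 by 1.10 and Bst2 by 1.19 in resident macrophages (adjusted p = 0.00172, 0.00062, 0.0114, 0.0132 and 0.00225). Cxcl10 and Ccnd1 did not pass as higher there. None of the 22 interferon-gamma GTPases and chemokines tested, which include Cxcl10, rose in resident macrophages. Nor did any of 20 cell cycle genes, which include Ccnd1. The difference of the irradiation effects between Ccr2 and resident macrophages, tested as an interaction with library as a block, was 0.30 ± 0.22 for Irf7, 0.26 ± 0.21 for Cxcl10 and 0.36 ± 0.16 for Ccl7 (adjusted p = 0.832, 0.867 and 0.664). That does not show that the effects were equal.

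The interaction passed for 9 of 11600 genes with irradiation (0.0776%) and for 6 with the genotype label (0.0517%). Apoe was at 7287 and 6482 CPM in irradiated and 9870 and 11520 CPM in sham wild-type Ccr2 macrophages, but at 22870 and 21420 CPM and 22730 and 24040 CPM in resident macrophages (difference of log2 fold changes -0.54 ± 0.07, adjusted p = 0.00635). Cd163 was lower with irradiation in both, and further in Ccr2 macrophages (-1.36 ± 0.20, adjusted p = 0.0161). Ctsd, a lysosomal protease, was at 527 and 547 CPM against 777 and 935 CPM in Ccr2 macrophages and 1147 and 1120 CPM against 694 and 876 CPM in resident macrophages (-1.19 ± 0.13, adjusted p = 0.00245). Lgals3, a galectin of activated macrophages, was at 1180 and 1016 CPM against 1074 and 1336 CPM in Ccr2 macrophages and 528 and 488 CPM against 209 and 294 CPM in resident macrophages (-1.15 ± 0.11, adjusted p = 0.000662). Neither gene passed the irradiation test within Ccr2 macrophages, where the irradiated and sham libraries overlapped for Lgals3. A setting added after the values were seen left out cells with lymphoid transcripts. In it Ctsd was at 418 and 468 CPM in irradiated wild-type and 614.5 and 530 CPM in sham Ccr2 macrophages. Lgals3 was at 821 and 823 CPM against 795 and 725 CPM. The irradiation interaction then passed for 2 genes, 1 of them among the 9. Interaction calls moved strongly with the processing, and without the interferon limit no gene passed in either comparison (760 and 494 at an unadjusted p under 0.05).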

How the data were processed

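Per the labels' protocols, leukocytes were captured with 10x 3' v3 chemistry, and the submitters' processing notes name Cell Ranger 5.0.0, mm10 and Seurat 3. The authors deposited raw UMI counts per gene and cell for 6 libraries, 2 in each of 3 groups. No normalization had been applied to these counts. The members and gene lists were chosen with earlier results of these data known.

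Cells were filtered and gated as the report states, and the members' counts were summed per library. Genes were tested with edgeR 4.0.16 in R 4.3.3 (filterByExpr, TMM scaling, quasi-likelihood F test with Benjamini-Hochberg adjustment at 0.05) in a fit over all 6 libraries with 3 residual degrees of freedom, after the 18 genes of the rule had been left out. Library totals ran from 31650962 to 59675213 UMIs, and the fewest member UMIs, in sham, give the least precision. The interaction with resident macrophages used library as a block. Shares were compared with two-sided exact permutation tests and 95% exact binomial intervals, which cover counting error only. Doublets were scored with scrublet at 0.8% per 1000 cells, since its automatic threshold marked 0 to 3 cells, and were kept, 126 of them among members. Named genes are the up to 10 called genes per direction with the largest change and a mean of at least 20 CPM in a group, without predicted or ribosomal names, up to 4 genes per list with the lowest p, and a short set named for every comparison. Alternatives changed the scaling, the filters, the gate, the depth, the tool (DESeq2 1.42.0) and the libraries used. Tests were tried on simulated data first. Gene positions are from GENCODE on GRCm38 (32158 of 32285 genes). Some called genes are counted but not reported here by name.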

Additional observations from a re-analysis of the deposited data

Results flagged for a closer look

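The irradiation effect differed between Ccr2 and resident macrophages for 9 genes, by edgeR's test of the interaction. As the log2 fold change in Ccr2 minus that in resident macrophages, the values were -1.36 for Cd163, -1.19 for Ctsd, -1.15 for Lgals3, -1.10 for the lectin gene Clec4n and -0.54 for Apoe. They were 1.45 for the fatty acid carrier Fabp4, 2.48 for the granzyme gene Gzma, 4.25 for the endothelial lipase anchor Gpihbp1 and 4.51 for the matrix inhibitor Timp3. Endothelial markers summed to 64.9 and 382 CPM in irradiated wild-type and 88.0 and 141 CPM in sham Ccr2 macrophages, and T and NK cell markers to 41.0 and 54.5 CPM and 150 and 113 CPM. Their part in these values was not tested.

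The genotype effect differed between the 2 classes for 6 genes. The differences were -3.32 for Gzma, 1.31 for S100a9, 1.35 for G0s2, 1.41 for S100a8, 1.82 for Trem1 and 1.84 for Hdc. The last 5 are transcribed in neutrophils, and neutrophil markers summed to 2077 and 1620 CPM in irradiated knockout and 461 and 784 CPM in irradiated wild-type Ccr2 macrophages. Their part in these values was not tested.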

How the results depend on the processing

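The counts of called genes moved with the processing. For irradiated against sham wild type, 17 calls became 6 with no filter on low counts, 30 with cells thinned to 3000 UMIs, 90 with DESeq2 and 10 with a replicate block. For knockout against irradiated wild type, 65 became 12 with no filter, 22 with mitochondrial UMIs of at most 5%, 102 with at least 2 Ccr2 UMIs, 132 thinned, 155 with DESeq2, 19 with only the 4 libraries compared and 48 with a replicate block. For irradiated knockout against sham, 94 became 33 with no filter, 23 at 5% mitochondrial UMIs, 197 with DESeq2 and 66 with a replicate block. Replicate numbers did not pair the libraries (correlations of deviations -0.148, -0.0477 and 0.0354). Leaving out a library gave 1 to 20, 7 to 32 and 2 to 127 calls in these comparisons, and 3 to 21 and 1 to 26 for the irradiation and genotype interactions.

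The 9 irradiation interactions became 137 with no filter, 14 without doublets, 1 with at least 2 Ccr2 UMIs, 0 without the interferon limit and 2 without cells with lymphoid transcripts, a setting added once the data had been seen. The 6 genotype interactions became 66 with no filter, 1 at 5% mitochondrial UMIs, 0 without doublets (527 at an unadjusted p under 0.05), 1 with at least 20 C1q UMIs, 0 without the interferon limit and 2 thinned. Signs reversed for Fabp4 (-0.32 without the interferon limit, -0.36 thinned) and Gpihbp1 (-0.035 without the interferon limit) in the irradiation interaction, and for G0s2 (-0.15) and Hdc (-0.33) thinned in the genotype interaction. The share differences with irradiation were 25.13 points at 5% mitochondrial UMIs and 25.47 with at least 2 Ccr2 UMIs, and 26.65 and 30.52 for knockout against sham with at least 2 Ccr2 UMIs and thinned. Without a library they were 25.82 to 33.25, -4.69 to 2.74 for knockout against irradiated wild type, and 27.18 to 29.94 for knockout against sham. Over 1893 settings of 109 results, 1247 kept direction and side of the threshold, 619 lost and 22 gained the call, and 5 reversed. The causes were not tested. Precision is limited by 2 libraries a group and by the few UMIs in sham.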
